A study of Canis lupus familiaris with 20 samples.

Results

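The genes described here are the 200 that were abundant in dog osteosarcoma cells and had the lowest counts, relative to those cells, in the exosomes the cells shed. They came from a table of 24579 Ensembl dog gene identifiers. First, 2601 genes reached at least 50 CPM (counts per 1000000 counts of the library) in all 8 cell libraries. For OSCA-8, OSCA-78, OS-1 and OS-2, the lines with both kinds of library, the mean exosome CPM plus 1 was then divided by the mean cell CPM plus 1, and the 200 genes with the lowest median ratio over these 4 lines were kept. The exosome to cell difference therefore chose these genes, and it is described below without a test.

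The libraries compared were 12 of exosomes from culture supernatants and 8 of cultured cells. Exosomes of OS-1 gave 4 libraries, and those of OSCA-8, OSCA-78, OSCA-32 and OS-2 gave 2 each. Cells of OSCA-8, OSCA-78, OS-2 and OS-1 gave 2 libraries each. All groups are lines of canine osteosarcoma, a bone tumour, with no treatment or genetic change given, and the series title names an exosomal signature of residual disease as the aim. OSCA-32 has exosomes alone and took no part in the choice of genes. The labels do not say whether replicates are separate cultures. The p-values below set group differences against the spread of libraries within groups, pooled over the groups of a fit, and that spread can be technical.

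Exosomes are small vesicles that form as buds inside endosomes and leave the cell when the endosome fuses with the plasma membrane. They carry selected proteins and lipids together with RNA, of which whole or broken messenger RNA is a part. A messenger RNA that is plentiful in the cell need not be plentiful in its vesicles, and precipitation with ExoQuick, the reagent named in the labels, can also bring down other particles that hold RNA. The files do not pair identifiers with gene names, and 0 of the 200 members matched the RefSeq gene table at hand, so no roles are given for them and the cell type could not be checked against marker genes.

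Totals were 259078 to 481487 counts in exosome libraries and 7728553 to 13301840 in cell libraries, so 3 counts, taken as the limit that a count of 0 allows, were worth 6.23 to 11.6 CPM in an exosome library and 0.226 to 0.388 CPM in a cell library. These limits and all intervals cover counting error only. Exosome libraries of 1 line were not alike. OS-1 replicates 3 and 4 and OSCA-78 replicate 3 lay apart from the other libraries of their lines and close to the OSCA-32 libraries, as the values below show, and their part in the results was not tested beyond the values given. The most counted gene of a library took 0.460% to 32.3% of the counts in exosome libraries and 1.32% to 2.58% in cell libraries. The labels give 1 preparation text for both fractions, so steps that differed between exosomes and cells cannot be told apart from the fraction.

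In cells the 200 genes were among the most heavily counted. The rule divided by the mean cell CPM, which favours genes of high cell CPM, so the places below are descriptions. Their mean CPM over the 8 cell libraries ran from 69.8 to 12932 with a median of 600, at a median place of 92.8% among the 2601 abundant genes ranked by cell CPM. Of the 5 equal groups formed by that ranking, the highest held 147 of the 200 and the lowest held 3. Among the 100 genes of highest cell CPM, 66 were members. CPM is not divided by gene length, so these are places by counts and not by molecules. The median ratio of all abundant genes declined along the same ranking, with 0.612 in the lowest group and 0.182 in the highest.

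The members held a small part of exosome counts and a large part of cell counts. In OS-1 exosomes they took 1.86%, 1.77%, 0.946% and 0.878% of the counts (replicates 1 to 4), against 21.5% and 22.9% in OS-1 cells. In OS-2 they took 4.21% and 4.12% in exosomes, against 19.9% and 16.5% in cells. In OSCA-78 they took 1.82% and 0.970% in exosomes (replicates 2 and 3), against 19.5% and 22.5% in cells. In OSCA-8 they took 2.74% and 2.42% in exosomes, against 23.4% and 24.4% in cells. No exosome library came near a cell library. The mean share was 16.3-fold lower in exosomes of OS-1, 15.1-fold lower in OSCA-78, 9.27-fold lower in OSCA-8 and 4.37-fold lower in OS-2. Had exosomes held these genes at the mean cell CPM, 340562 counts would have fallen on them in OS-1 exosomes, where 19500 were found, and 170120 in OS-2 exosomes, where 38973 were found. The Clopper-Pearson 95% interval of the share was 0.848% to 0.906% in the library with the lowest share, OSCA-32 replicate 2, and 4.16% to 4.27% in the one with the highest, OS-2 replicate 1. Such shares give no amount per vesicle, and less of these RNAs and more of other RNA cannot be told apart in them.

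**Figure D1:**
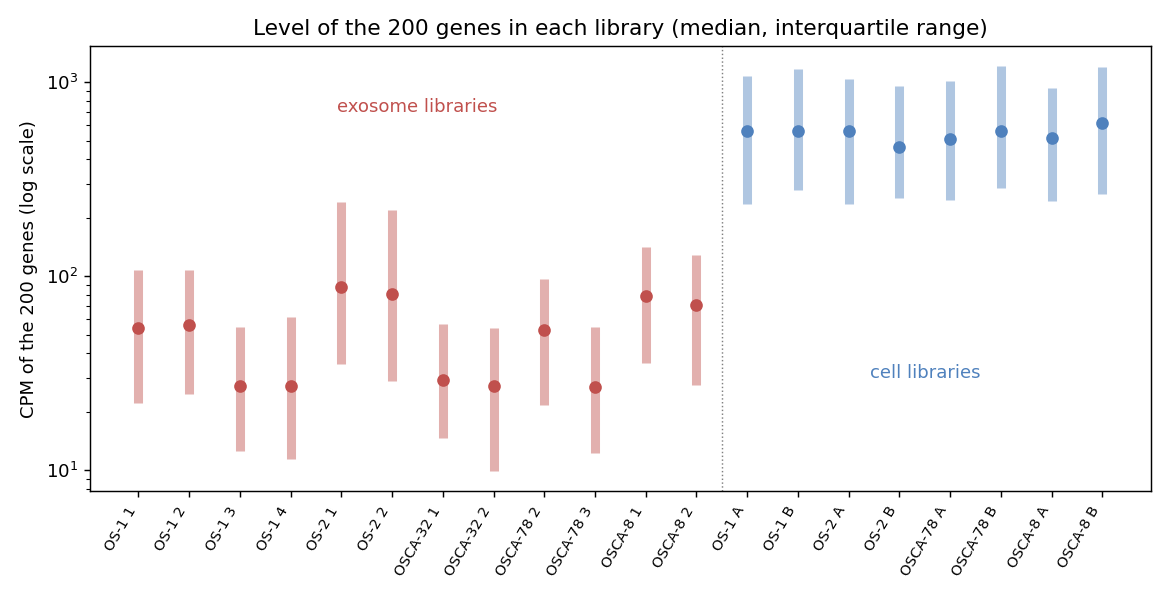
CPM (log axis) of the 200 genes in each of the 12 exosome libraries (red) and 8 cell libraries (blue). Points are medians over the genes and bars the interquartile range over the genes; exosome medians lay between 27.0 and 88.3 CPM and cell medians between 463 and 614 CPM.

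By gene, the median member stood at 27.0 to 88.3 CPM in exosome libraries and at 463 to 614 CPM in cell libraries. The order of the exosome groups was OS-2 (84.4 ± 5.5 CPM), OSCA-8 (75.2 ± 5.71), OS-1 (41.2 ± 16.2, n = 4), OSCA-78 (39.9 ± 18.3) and OSCA-32 (28.2 ± 1.49), as mean of the library medians with SD and n = 2 unless stated. OS-2 and OSCA-8 did not overlap. OS-1, OSCA-78 and OSCA-32 did not differ beyond their spread, because OS-1 replicates 3 and 4 had 27.2 CPM each and OSCA-78 replicate 3 had 27.0 CPM. OS-1 replicates 1 and 2 had 54.0 and 56.3 CPM and OSCA-78 replicate 2 had 52.9 CPM. All genes abundant in cells moved with this split: together they took 21.3% to 22.9% of the counts in OS-1 replicates 3 and 4, OSCA-78 replicate 3 and both OSCA-32 libraries, 30.5% to 38.2% in OS-1 replicates 1 and 2, OSCA-78 replicate 2 and both OSCA-8 libraries, and 60.5% and 55.1% in OS-2. Members made up 4.02% to 7.48% of these counts in exosome libraries and 24.9% to 35.2% in cell libraries.

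Most members were present in exosomes at low counts rather than missing. They were low relative to cells, and not in every exosome library relative to other genes. Ranked by CPM among the 2601 abundant genes, the median member stood at 78.9% and 79.9% in OS-2 exosomes and at 65.6% and 55.6% in OSCA-8. In the other exosome libraries it stood at 18.3% to 44.2%. A count was found in every exosome library for 171 of the 200, and 2 to 8 members were at 0 in any 1 exosome library. The median member had 11 to 42.5 counts per exosome library, so values of single members carry a large counting error. For 181 of the 200 the highest of the 10 exosome libraries of the 4 lines lay below the lowest of the 8 cell libraries, and over the whole table this held for 6.13% of genes. Since the rule used this contrast, nothing is read from that count. In the 19 members with overlap, the highest exosome library was of OS-2 in 13, OSCA-8 in 5, OS-1 in 1 and OSCA-78 in 0.

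The last member inside the list had a median ratio of 0.1337 and the first gene outside it 0.1341, so the list does not end at a gap. Ratios of the members ran from 0.00407 to 0.383 in OSCA-8 (median 0.130), 0.00899 to 0.211 in OSCA-78 (median 0.0739), 0.0122 to 0.319 in OS-1 (median 0.0754) and 0.00393 to 0.752 in OS-2 (median 0.201). The other 2401 abundant genes had medians of 0.425 in OSCA-8, 0.418 in OSCA-78, 0.439 in OS-1 and 0.320 in OS-2. OS-2 thus had the highest member median and the lowest median of the others. In the group of highest cell CPM the gaps were smaller. Its 147 members had medians of 0.130 in OSCA-8, 0.0708 in OSCA-78, 0.0717 in OS-1 and 0.220 in OS-2. The 373 other genes of that group had 0.264, 0.192, 0.186 and 0.275 in the same order, so OS-2 was not the lowest there. Members were the most spread out in OS-2: 89 of the 200 had an OS-2 ratio of at least 0.25, while 68 lay below 0.1. A ratio of at least 0.25 was reached by 5 members in OSCA-8, 1 in OS-1 and 0 in OSCA-78. The highest of a member's 4 ratios fell in OS-2 for 117 members, in OSCA-8 for 56, in OS-1 for 20 and in OSCA-78 for 7. A median over 4 lines lets 1 line lie high, so the rule does not bound OS-2.

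**Figure D2:**
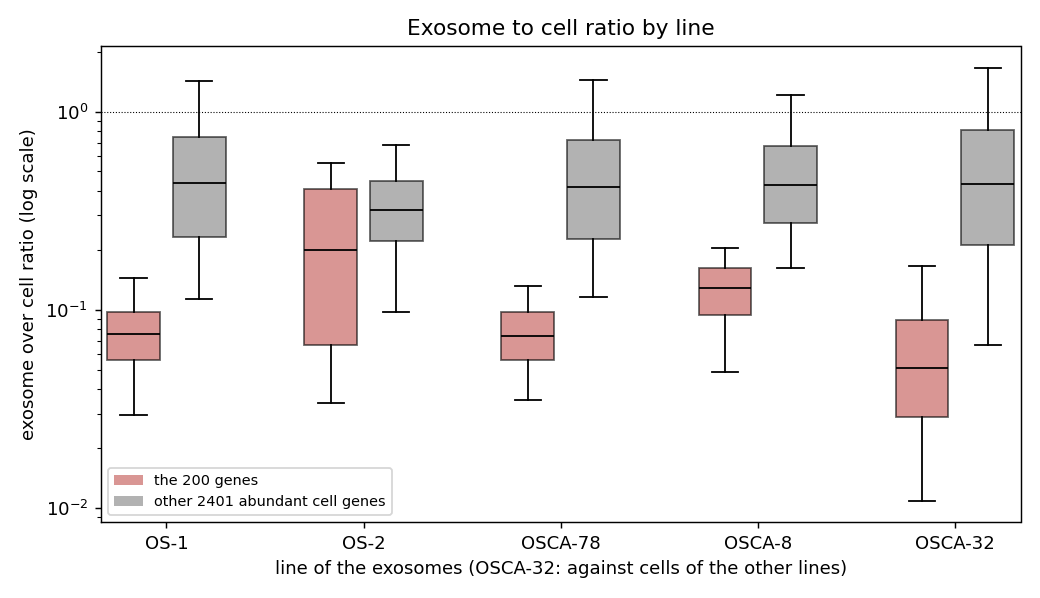
Ratio of exosome to cell CPM (log axis, 1 CPM added to each) for the 200 genes (red) and the other 2401 abundant cell genes (grey) by line. Boxes span the interquartile range with the median, whiskers the 5th to 95th percentile; the dotted line is a ratio of 1. The member median was highest in OS-2 (0.201) and lowest in OSCA-32 (0.0509), which has no cells here and is set against the mean of all cell libraries.

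Within the list, members low in OS-2 exosomes and members high in them had similar levels in cells. The 50 members of highest OS-2 ratio (0.408 to 0.752) had a median of 251 CPM in OS-2 exosomes and 488 CPM in OS-2 cells. The 50 of lowest OS-2 ratio (0.00393 to 0.0648) had a median of 26.1 CPM in OS-2 exosomes and 604 CPM in OS-2 cells. In OSCA-32 exosomes, which the rule did not use, the order was the other way round, with medians of 15.9 CPM for the members high in OS-2 and 33.7 CPM for those low in OS-2. The choice of members could favour this order, since a member high in OS-2 had to be low in most of the other lines. Whether it did was not tested. The median OS-1 ratio was 0.0715 for the members high in OS-2, below the 0.0893 of those low in OS-2. For OSCA-8 the members high in OS-2 had the higher median, 0.140 against 0.111. The same held for OSCA-78, with 0.0732 against 0.0652. Spearman's rho between the OS-2 and OSCA-32 ratios was -0.31 over the 200 members but 0.12 over all 2601 abundant genes, so the sign is not that of abundant genes in general. These values are over genes, which are not independent replicates, and the ratios share cell libraries.

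The member of lowest median ratio was ENSCAFG00000005978. It had counts of 25 and 2 in OSCA-78 exosomes, 2, 0, 0 and 1 in OS-1, and none in either library of OSCA-8 or OS-2. In cells it stood at 356 and 134 CPM in OSCA-8, 337 and 313 CPM in OSCA-78, 439 and 134 CPM in OS-1 and 256 and 251 CPM in OS-2. Every exosome library lay below every cell library. At the mean cell CPM, 439 counts would have fallen on it in OS-1 exosomes, 237 each in OS-2 and OSCA-78, and 185 in OSCA-8. OSCA-78 replicate 2 was thus the exosome library where it was seen clearly, with 77.7 CPM, and OSCA-32 exosomes held 1 and 4 counts. In cells, replicate A was far above replicate B in OS-1 and OSCA-8, and the replicates were close in OS-2 and OSCA-78.

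ENSCAFG00000023443, at rank 2, was spread differently. Its exosome counts were 15 and 6 in OS-2, 4, 0, 2 and 1 in OS-1, 4 and 7 in OSCA-8, 2 and 0 in OSCA-78 and none in OSCA-32. In cells it stood at 425 and 610 CPM in OSCA-8, 330 and 427 CPM in OSCA-78, 395 and 351 CPM in OS-1 and 192 and 167 CPM in OS-2. OS-2 had the highest exosome level (22.2 ± 12.7 CPM, SD, n = 2) and the lowest cell level (180 ± 17.6 CPM, n = 2) of this gene. Exosome and cell libraries did not overlap for it either.

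**Figure D3:**
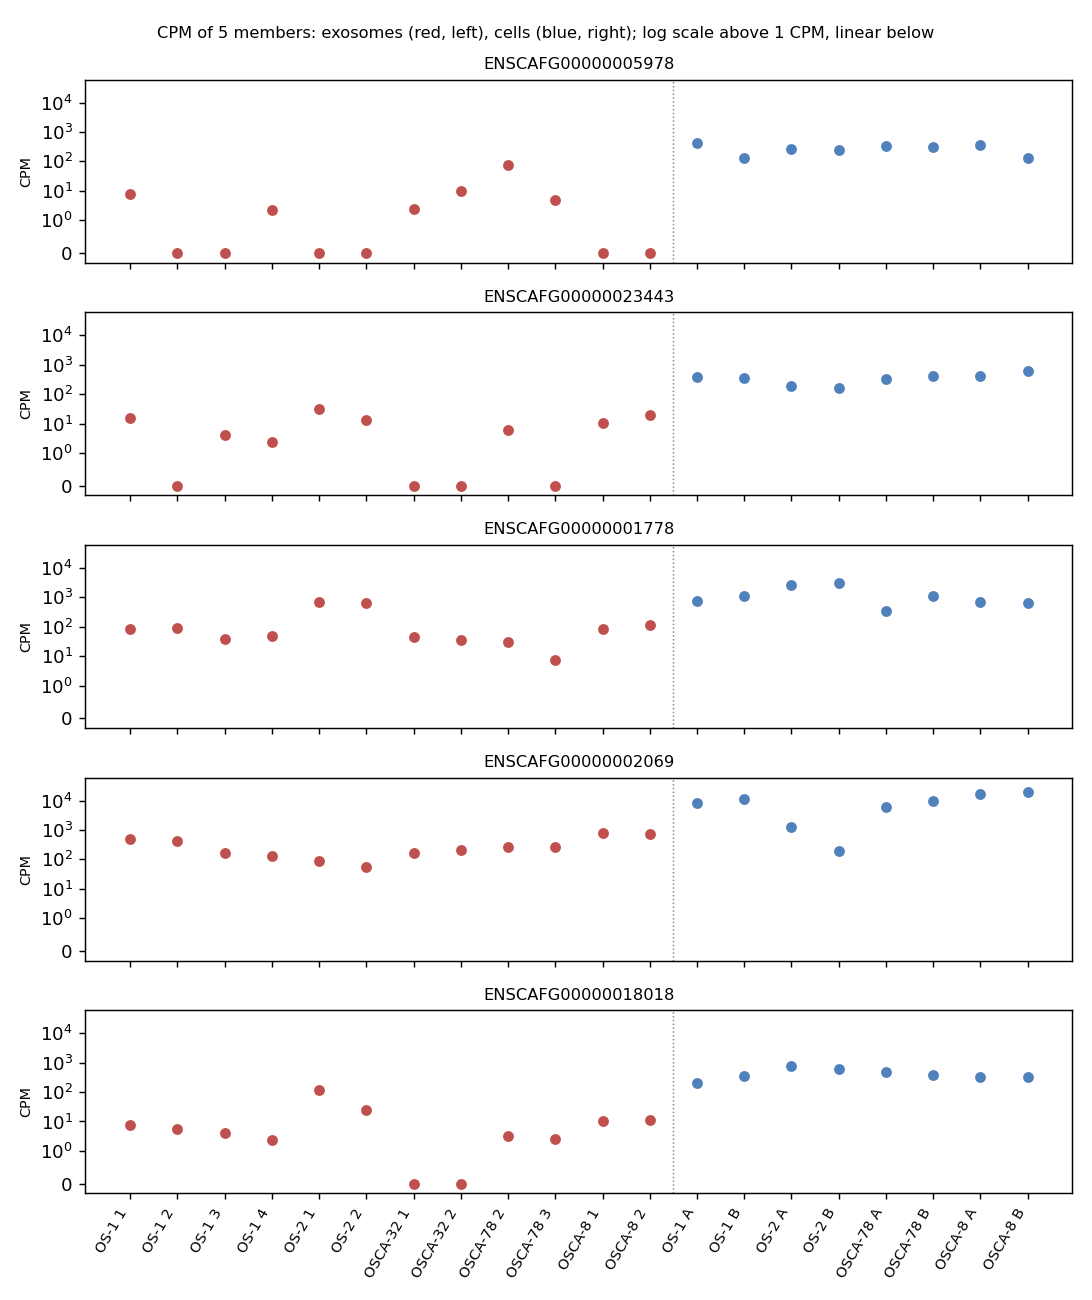
CPM of 5 members in each exosome library (red, left) and cell library (blue, right), on a log scale above 1 CPM and a linear one below. From the top, ENSCAFG00000005978 and ENSCAFG00000023443 have the lowest median ratios, ENSCAFG00000001778 and ENSCAFG00000002069 were called between cell lines, and ENSCAFG00000018018 between exosome lines; OS-2 cells had 191 and 1289 CPM of ENSCAFG00000002069.

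The choice was repeated with 1 line left out each time, and the 200 genes so chosen were looked up in that line. With OS-1 left out, their median ratio in OS-1 was 0.0943, against 0.418 for all 2780 genes then open to the choice. With OSCA-78 left out it was 0.0879, against 0.402, and with OSCA-8 left out 0.149, against 0.411. In these 3 lines all 200 lay below the median of all genes. The genes open to the choice were not matched to the 200 by cell CPM, along which ratios declined. With OS-2 left out the median ratio in OS-2 was 0.345, against 0.332 for all genes, and 93 of the 200 lay below the median of all genes. By the median, genes chosen for low ratios in OS-1, OSCA-78 and OSCA-8 thus had no lower ratios in OS-2 than abundant genes in general. They were more spread out, with quartiles of 0.104 and 0.486, against 0.220 and 0.467 for all genes. Of them 49 were among the 200 lowest of that line, where 2889 genes were open to the choice. Between 148 and 157 of the 200 members were chosen again with a line left out.

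**Figure D4:**
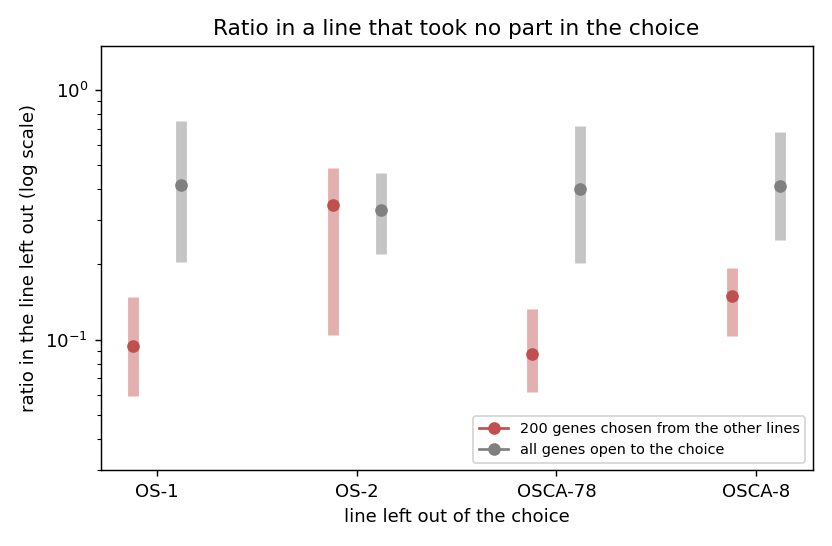
Ratio of exosome to cell CPM (log axis) in a line that took no part in the choice, for the 200 genes chosen from the other lines (red) and all genes open to the choice (grey). Points are medians and bars the interquartile range; the medians were apart in OS-1 (0.0943 and 0.418), OSCA-78 and OSCA-8, and close in OS-2 (0.345 and 0.332).

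OSCA-32 exosomes offer a measurement that the rule did not use. The members took 1.01% and 0.877% of their counts, the second being the lowest share of all exosome libraries. Set against the mean of the 8 cell libraries, the median ratio of the members was 0.0509 (19.7-fold lower), and the other abundant genes were 2.33-fold lower by their median. Among the 2601 abundant genes, 108 of the 200 lowest in OSCA-32 were members. For 199 members both OSCA-32 libraries lay below every cell library, which held for 11.9% of the whole table and for 1451 of the 2401 other abundant genes. In the group of highest cell CPM, 147 members had a median ratio of 0.0394 in OSCA-32 and the 373 other genes of that group 0.158.

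In an edgeR quasi-likelihood fit of all 20 libraries, 200 of 200 members were lower in OSCA-32 exosomes than in the mean of the 4 cell groups at an adjusted p under 0.05 and 0 were higher (0 also at an unadjusted p under 0.05). Of all 16561 genes tested 28.9% were called lower and 44.9% higher, and of the other abundant genes 2098 of 2401. The median fitted log2 difference was -5.38 for members, -2.21 for the other abundant genes and 0.58 for all genes tested. The cells are those that the rule used and are of other lines, so line and fraction cannot be told apart, and abundance in cells by itself favours a lower call. The count of 200 was the same with RLE, total count and upper quartile scaling, without a filter, with thinning, with DESeq2 and limma, and without each library in turn.

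Exosomes of the 5 lines were compared with each other in a fit of the 12 exosome libraries, with every gene that had a count kept so that all 200 members were tested. The exosome values of 4 lines were used to choose the members, so the counts below describe them. Between lines 140 of 200 members differed (edgeR, adjusted p under 0.05), against 13.1% of all 24079 genes tested and 1045 of the 2401 other abundant genes. With OS-2 left out altogether, a setting added after the data were seen, 25 members and 292 of 24056 genes were called.

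OS-2 exosomes carried more of most members than exosomes of the other lines. Relative to the mean of the other 4 lines, 134 members were higher, where 8.79% of all genes and 1090 of 2401 other abundant genes were, and 0 were lower (4.76% of all genes; 1 member at an unadjusted p under 0.05, 0 by DESeq2 and limma). The median log2 difference was 2.81 for members, 0.90 for other abundant genes and -0.43 for all genes. With total counts in place of TMM scaling the medians were 1.30 for members, -0.61 for other abundant genes, whose sign turned, and -1.74 for all genes. Then 105 members were higher and 21 lower, beside 346 and 961 of the other abundant genes and 665 and 10974 of all 24079 genes. Members lay above the median of all genes in both cases, by 3.25 with TMM and 3.04 with total counts. Counts in the next 3 lines were small and hung on single libraries. OSCA-8 exosomes had 10 members higher (0.39% of all genes) and 0 lower (0.274%; 3 members at an unadjusted p under 0.05, 0 by DESeq2 and limma). With the whole OS-2 line left out, 33 members were higher in OSCA-8, beside 223 of all 24056 genes. Members higher were 0 among abundant genes alone, 2 with filterByExpr, 4 with DESeq2 and 8 with limma. The 10 became 1 without OSCA-8 replicate 1, 5 without OSCA-8 replicate 2, 2 without either OS-2 library, 44 without OSCA-78 replicate 2 and 16 to 26 without any of the other 7 libraries. OS-1 exosomes had 29 members lower (0.457%) and 0 higher (0.133%; 2 members at an unadjusted p under 0.05, 0 by DESeq2 and limma). Here the 29 became 7 and 11 without OS-1 replicates 4 and 3, 12 and 9 without OS-2 replicates 1 and 2, 19 without OSCA-8 replicate 1, 54 and 58 without OS-1 replicates 1 and 2 and 60 without OSCA-78 replicate 3. They became 0 with the whole OS-2 line left out (0 of all genes called, 4 members at an unadjusted p under 0.05), 0 among abundant genes alone, 6 with limma and 8 with filterByExpr. OSCA-78 exosomes had 9 members lower (0.374%) and 1 higher (0.386%), with 0 lower without OSCA-78 replicate 3, 36 without OSCA-78 replicate 2 and 2 to 23 without any other library, and 0 lower with the whole OS-2 line left out. With total counts OS-1 had 4 members higher and 20 lower, beside 2764 and 48 of all genes, and OSCA-78 had 1 higher and 2 lower, beside 843 and 28 of all genes. OSCA-8 then had 20 members higher and 0 lower, beside 170 and 35 of all genes.

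The member with the largest fitted rise in OS-2 exosomes was ENSCAFG00000018018, at rank 3 of the list. It had 118 and 24.3 CPM in OS-2 exosomes, against 2.27 to 7.72 CPM in the 4 OS-1 libraries, 3.11 and 2.45 CPM in OSCA-78, 10.2 and 10.9 CPM in OSCA-8 and no count in OSCA-32. The OS-2 libraries lay above all others but far from each other. The difference from the mean of the other lines passed (edgeR adjusted p = 2.07e-24). The size of the p-value hung on the setting, with 3.32e-06 by edgeR among abundant genes alone and 1.90e-09 by limma. The choice of members favoured low exosome values in OS-1, OSCA-78 and OSCA-8, so these p-values are descriptions. The fitted fold of this gene is not given, because OSCA-32 at 0 enters that mean and the fold then depends on the prior count. In OS-2 cells it stood at 767 and 605 CPM, against 203 to 468 CPM in cells of the other lines, a log2 difference of 1.07 that did not pass (adjusted p = 0.0529).

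**Figure D5:**
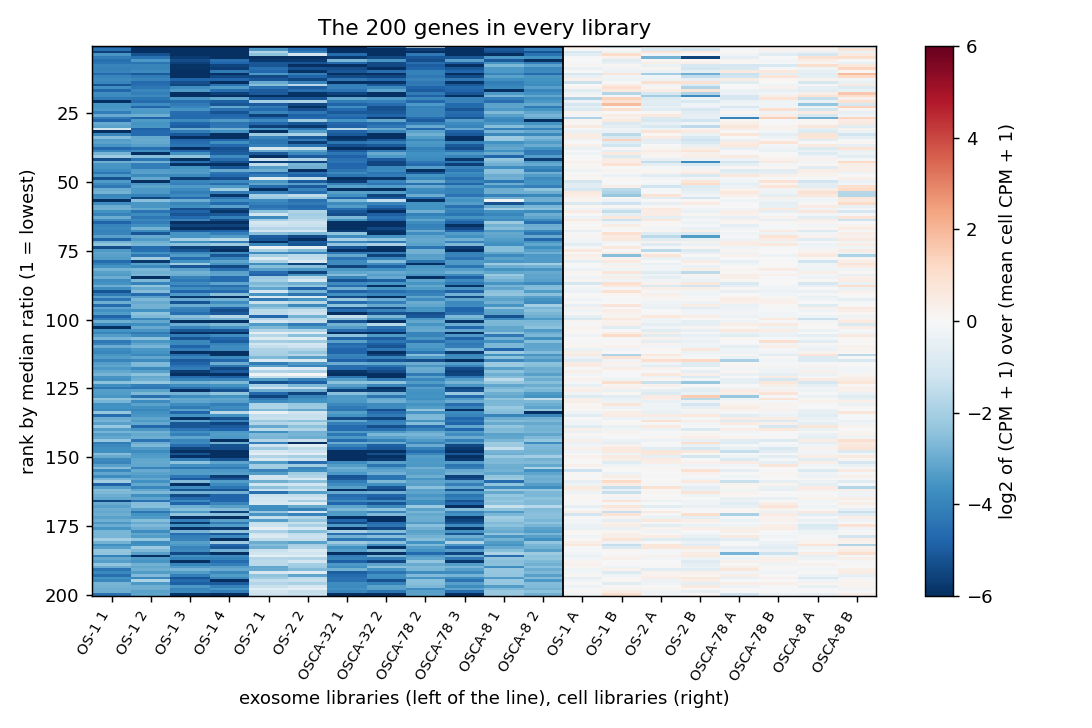
The 200 genes (rows, rank 1 at the top) in 12 exosome libraries and 8 cell libraries, as log2 of CPM plus 1 over the mean cell CPM plus 1, with colours capped at -6 and 6. Exosome libraries were low throughout, with a large group of paler rows in both OS-2 libraries, where 89 members had a ratio of at least 0.25.

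At the other end, the median member stood at 27.2 CPM in each of OS-1 replicates 3 and 4 and at 27.0 CPM in OSCA-78 replicate 3. OSCA-32 exosomes, at 29.3 and 27.2 CPM, were lowest by the mean of the line. Relative to the mean of the other 4 lines, 69 members were lower (2.49% of all genes, 311 of 2401 other abundant genes) and 0 were higher (3.43% of all genes; 2 members at an unadjusted p under 0.05, 0 by DESeq2 and limma). The median log2 difference was -1.34 for members, -0.28 for other abundant genes and 0.15 for all genes tested. With total counts the medians were -0.81 for members, 0.25 for other abundant genes, whose sign turned, and 0.65 for all genes. Then 55 members were lower and 5 higher, beside 146 and 382 of the other abundant genes and 302 and 4250 of all genes, and members lay at -1.46 relative to the median of all genes, against -1.49 with TMM. The count of 69 leaned on OS-2: without the OS-2 line, chosen after seeing the data, it was 4, without OS-2 replicate 1 it was 44 and without replicate 2 it was 42. It was 109 without OS-1 replicate 3 or replicate 4 and 110 without OSCA-78 replicate 3. ENSCAFG00000018018 was the member with the largest fitted fall, with no count in either OSCA-32 library, which allows up to 3.68 CPM (3 counts over both libraries). Its fitted fold depends on the prior count and is not given (edgeR adjusted p = 0.0106). That call was lost without either OSCA-32 library, without OS-2 replicate 1, without the whole OS-2 line and with counts thinned to the smallest total, at adjusted p of 0.0759 to 0.313.

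Cells of the 4 lines were compared with each other as well. The rule asked for 50 CPM in every cell library and divided by the cell mean, so members could not be near 0 in any line, and the counts below are descriptions. Over the 4 lines edgeR called 0 of 200 members, against 31 of 2401 other abundant genes, which passed the same minimum, and 3.39% of all 14148 genes tested. At an unadjusted p under 0.05 there were 29 members. DESeq2 called 29 members, where it called 19.2% of all genes, and limma called 0. With the replicate letter as a block 1 member was called, where 9.06% of all genes were. OS-2 cells against the other lines had 5 members higher (6.92% of all genes) and 6 lower (7.12%), and with the letter as a block 11 higher (10.4%) and 9 lower (11.5%). The median log2 difference of the members from the other lines lay between -0.09 (OS-2 and OSCA-78) and 0.15 (OS-1). In OS-1, OSCA-78 and OSCA-8 cells edgeR called 0 members in either direction, where at most 0.184% of all genes were higher and 0.0565% lower (both in OSCA-78), with 14, 17 and 18 members at an unadjusted p under 0.05. In the same order DESeq2 called 1, 7 and 7 members, where it called 2.09%, 6.35% and 4.01% of all genes, and limma called 0 in each. With the letter as a block 1 member was lower in OSCA-78, where 177 of all genes were higher and 63 lower, and 0 members were called in OS-1 and OSCA-8.

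Single libraries moved these small counts. Without OS-2 replicate A 0 members were higher and 2 lower in OS-2 cells, while 0 and 0 were called without OS-2 replicate B. They were 1 and 3 without OSCA-78 replicate A, and without OSCA-78 replicate B 4 and 1, without OSCA-8 replicate A 2 and 3, without OSCA-8 replicate B 3 and 2, and without OS-1 replicate B 11 and 7. Of the 134 members higher in OS-2 exosomes, 4 were higher in OS-2 cells, 3 were lower and 127 were not called. Of the members not called in OS-2 exosomes, 1 was higher in OS-2 cells, 3 were lower and 62 were not called.

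The member with the largest fall in OS-2 cells was ENSCAFG00000002069, at rank 5 of the list. It had 1289 and 191 CPM in OS-2 cells, against 8302 and 11064 CPM in OS-1, 6269 and 9398 CPM in OSCA-78 and 17422 and 18897 CPM in OSCA-8. The log2 difference was -3.88 (SE 0.84, edgeR adjusted p = 0.0266), and it was -5.82 when OS-2 replicate A was left out and -3.08 when replicate B was. OS-2 lay below all other cell libraries, and the call was lost when OS-2 replicate B (adjusted p = 0.0937) or OSCA-78 replicate B (0.0511) was left out. In exosomes it had 91.4 and 57.3 CPM in OS-2, 132 to 494 CPM in OS-1, 168 and 210 CPM in OSCA-32, 267 and 260 CPM in OSCA-78 and 805 and 728 CPM in OSCA-8. OS-2 was lowest and OSCA-8 highest in both fractions by CPM. With TMM scaling the exosome log2 difference of OS-2 from the other lines was -0.64 and did not pass (edgeR adjusted p = 0.272). TMM sets OS-2 exosomes higher than CPM does, so -0.64 and the CPM values are on unlike scales. The median OS-2 difference of all genes was -0.43 with TMM and -1.74 with total counts.

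The member with the largest rise in OS-2 cells was ENSCAFG00000001778, at rank 115. It had 2561 and 3074 CPM in OS-2 cells, against 751 and 1096 CPM in OS-1, 332 and 1111 CPM in OSCA-78 and 722 and 660 CPM in OSCA-8 (log2 difference 1.90, SE 0.45, edgeR adjusted p = 0.0343). The call was lost without OS-1 replicate A, without either OS-2 library and without either OSCA-8 library, at adjusted p of 0.0556 to 0.233. In exosomes it had 681 and 620 CPM in OS-2, against 37.6 to 90.1 CPM in OS-1, 43.9 and 34.6 CPM in OSCA-32, 31.1 and 7.35 CPM in OSCA-78 and 81.8 and 118 CPM in OSCA-8. The OS-2 libraries lay above all others in both fractions, with a log2 difference of 5.32 (SE 0.25) in exosomes and 1.90 in cells. The 5.32 is on the TMM scale, which sets OS-2 exosomes higher than CPM does (median of all genes -0.43, against -1.74 with total counts).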

How the data were processed

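Per the submitters' processing notes, FastQC 0.11.5, Trimmomatic 0.33.0 and kallisto 0.43.0 were used, with the builds CanFam3.1 and GRCm38.p5. The authors deposited whole-number counts per gene in 1 table whose name points to Subread. Which tool counted, whether by strand, and how reads of similar or overlapping genes were assigned is not given in the sources used here. The labels' protocols name ExoQuick, the SeraMir ExoRNA kit and a SMARTer stranded total RNA kit for all samples. There was 1 column that matched no sample label and was not used.

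CPM was computed on the column total. Tests were edgeR 4.0.16 quasi-likelihood F tests (limma 3.58.1, R 4.3.3) with TMM scaling, robust dispersions and Benjamini-Hochberg adjustment over all genes of the fit at 0.05, checked on simulated data. SE is the log2 difference divided by the root of F. Fits were of 8 cell and all 20 libraries with filterByExpr (minimum count 10), and of 12 exosome libraries without it, where the filter would have kept 185 members. DESeq2 1.42.0, limma voom, other scalings, thinning and left-out libraries were alternatives. Members and lists were chosen with earlier results of these data known. Gene lists prepared by symbol could not be used.

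Named were the 2 members of lowest median ratio and, between lines, the called member of largest fold each way. No replicate pair was a copy of another (chi-square per degree of freedom at least 1.79). Deviations of same-lettered cell libraries correlated at 0.167 to 0.465 in all 6 pairs of lines (with 2 replicates, A and B give the same value), so letters were taken to pair them, from the data alone. The main cell fit nevertheless had no term for the letter. With the letter as a block, 20 members and 3099 genes were called in OS-2 cells, against 11 and 1986 without it. ENSCAFG00000002069 and ENSCAFG00000001778 passed with the block too (edgeR adjusted p = 0.0284 and 0.0139).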

Additional observations from a re-analysis of the deposited data

How the results depend on the processing

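Of 429 alternatives tried, 343 stayed close to the reported value or on its side of the threshold, and 86 moved or became weaker. Most of the results are counts of members, which cannot change direction. The fitted log2 differences among them kept their sign. Of the 200 members, 165 to 196 were chosen again under other pseudocounts, cell minimums, scalings and averages, 174 to 197 without each library, but 104 by the highest of the 4 ratios. In cells, members called between lines were 1 without a filter, 1 with the replicate block and 29 with DESeq2 (0 to 1 without each library). Members higher in OS-2 cells were 8 among abundant genes alone, 11 with the replicate block and 11 with DESeq2 (0 to 11 without each library), and members lower were 19 with DESeq2 (0 to 9). In exosomes, members called between lines were 25 without the OS-2 line (94 to 148 without each library). Members lower in OS-2 exosomes were 21 with total counts, 11 among abundant genes alone, 3 with the replicate block, 1 with thinning and 3 without OS-1 replicates 3 and 4 and OSCA-78 replicate 3, the last chosen after seeing the data (0 to 1 without each library), and members higher were 108 to 137. Members higher in OSCA-32 exosomes were 5 with total counts, 1 with the replicate block and 1 without those 3 libraries. Members lower there were 37 among abundant genes alone, 128 with the replicate block, 38 with limma, 4 without the OS-2 line and 135 without those 3 libraries (42 to 110 without each library). The exosome numbers were not taken to pair libraries: OS-1 and OSCA-78 deviated together in replicate 2 (0.358) and replicate 3 (0.310), but no other same-numbered pair exceeded 0.0650. The causes were not tested.

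The median fitted log2 difference of members between exosomes and cells was -4.66 in OS-1, -1.69 in OS-2, -4.53 in OSCA-78 and -3.52 in OSCA-8. It was -4.07, -1.28, -3.95 and -2.99 with RLE scaling, -3.73, -2.31, -3.78 and -2.95 with total counts and -3.89, -1.18, -3.75 and -2.81 with thinning, in that order, and -1.13 in OS-2 and -3.07 in OSCA-8 with upper quartile scaling. Without each library it ran from -4.95 to -4.45 in OS-1, -2.07 to -1.42 in OS-2, -5.33 to -4.13 in OSCA-78 and -3.75 to -3.39 in OSCA-8. Depth limits single members most, since the median member had 11 to 42.5 counts in an exosome library.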

Other observations

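A core of 25 members was among the 200 lowest ratios of the abundant genes in each of the 4 lines taken alone. These genes ranged from 167 to 12932 CPM in cells, with a median of 1478 CPM. Their median ratio was 0.0577 in OS-1, 0.0475 in OS-2, 0.0464 in OSCA-78 and 0.0824 in OSCA-8. In OSCA-32, whose exosomes took no part in the choice, it was 0.0357 against the mean of all cell libraries. Of the 25, 20 were among the 200 lowest of the 2601 abundant genes there too. The rule divided by these same cell libraries, so this is a description. Ratios also declined with cell CPM, and the 373 non-members in the group of highest cell CPM had a median of 0.158 in OSCA-32. The member of highest cell CPM, at rank 19 with 12932 CPM, was one of the 25. Its ratio was 0.0416 in OS-1, 0.0743 in OS-2, 0.0267 in OSCA-78, 0.0678 in OSCA-8 and 0.0139 in OSCA-32. At the other end, 8 members were among the 200 lowest of no single line.

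Over the 2601 abundant genes, the ratios of OS-1, OSCA-78, OSCA-8 and OSCA-32 ran together, with Spearman's rho of 0.80 to 0.91 between lines, while OS-2 against each of them gave 0.12 to 0.25. Within single exosome libraries, rho between exosome CPM and the CPM of the line's own cells (for OSCA-32, all cells) over these genes was 0.59 in both OS-2 libraries, 0.40 and 0.47 in OSCA-8, 0.28 to 0.34 in OS-1 replicates 1 and 2 and OSCA-78 replicate 2, and 0.02 to 0.11 in OS-1 replicates 3 and 4, OSCA-78 replicate 3 and OSCA-32. These are descriptions over genes, which share libraries, depth and gene length, and their part in the results on the 200 members was not tested.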
